A study of Sus scrofa with 30 samples.

Results

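Genes of the mammary fat pad were followed through the lactation cycle of the sow, taking 8 genes that are widely used to mark or describe adipocytes: the adipokines LEP and ADIPOQ, the fatty acid carrier FABP4, the lipid droplet coat protein PLIN1, the lipases LIPE and PNPLA2, and the transcription factors PPARG and CEBPA. They were chosen by name, with earlier results of these data known. Of these 8 genes, 6 had a row in the transcript table, with 16 of their 26 reference transcripts, among 61773 transcripts that summed to 26012 genes or assembled loci (14951 reference genes and 11061 loci without a reference name). ADIPOQ and PLIN1 had no row under their reference transcripts and are not analysed here, and 29047 assembled rows carried no gene name, so whether any of these holds their reads was not tested.

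The tissue was mammary parenchyma of multiparous Danish Landrace × Yorkshire half-sibling sows, a different animal for each sample, with no genetic or drug treatment. Per the study's methods, fat, skin and connective tissue were avoided when the parenchyma was cut out. How far this lowered the adipocyte genes was not tested. Groups were mid-gestation (MG, day 70 of gestation), late gestation (LG, day 110), early lactation (EL, day 2 postpartum), peak lactation (PL, day 10) and the weaned gland in early involution (W2, 2 days post-weaning), as given by the sample titles. The genotype field of the labels gives the names of MG and EL the other way round, and the titles were followed. Of 6 samples per stage, 3 were near copies of the mean of the other 3 (their pairwise median difference was at most 1.85%, against 19.6% to 59.9% among the other samples of a stage), so each stage counted n = 3: MG 1, 3 and 6, LG 1, 3 and 4, EL 3, 4 and 6, PL 2, 3 and 6, and W2 2, 3 and 6.

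White adipocytes store triglyceride in a single large droplet. PPARG and CEBPA switch on and maintain the adipocyte programme, FABP4 carries fatty acids in the cytoplasm, PNPLA2 (adipose triglyceride lipase) removes the first fatty acid from stored triglyceride and LIPE (hormone-sensitive lipase) the next, and LEP encodes leptin, the hormone that reports fat stores. In the mammary gland the fat pad surrounds the ducts, and alveoli fill its space as the gland matures for lactation and give it back after weaning. FABP4 is also made by capillary endothelium and macrophages, and CEBPA and PPARG by epithelial and myeloid cells. In RNA of a mixed tissue, fewer adipocytes and less RNA per adipocyte cannot be told apart.

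Genes linked to adipocytes stood at very different levels. FABP4 was high in every library, with stage means that ranked it 133rd to 174th among reference genes. LPL, G0S2, CFD and CD36, which adipocytes share with other cells, were well above 1 TPM, at 57.6 to 685, 35.9 to 504, 13.3 to 70.9 and 6.40 to 47.0 TPM. The next 4 genes, picked after their values were seen, were low. PLIN4, a coat protein of adipocyte droplets, lay between 0.0830 and 4.81 TPM, CIDEC, which enlarges them, between 0 and 4.26, and the insulin-responsive glucose transporter SLC2A4 between 0 and 0.871. RBP4, a retinol carrier and adipokine, was at most 2.00 TPM. The fall or rise of a member was read as that gene's level in the gland, not as a number of adipocytes.

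The deposited values behaved as TPM, which give transcripts per length as a share of the whole library, and this bears on every comparison with PL. Transcripts of 6 milk protein genes took 285004, 138798 and 91237 TPM in PL 2, PL 3 and PL 6. They took 63857 to 120785 TPM in EL and 5781 to 8140 TPM in W2. How far that share accounts for the shifts given next was not tested. The median log2 fold change over all genes was -0.47 in PL against the mean of the other 4 stages and 0.68 in W2 vs PL. Calls were lopsided too, with 789 genes higher and 7096 lower in the first comparison and 7899 higher and 644 lower in the second. When samples were scaled by the median ratio of 3521 genes (the lowest factor was 0.566, of PL 2), these became 1928 higher and 2330 lower, and 1931 higher and 1473 lower. Quantile normalization gave 1923 higher and 2467 lower, and 1986 higher and 1558 lower. Under these scalings 13.1% and 13.6% of genes were called in W2 vs PL (median ratio, quantile) and 16.4% and 16.9% in PL against the other stages. Exact zeros can be failed estimates in such a table: 51 genes were at 0 in PL 2 while at 5 TPM or more in the 14 other samples, against 0 to 6 genes for any other sample.

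LEP was the member that rose at peak lactation. Its gene sum was 0, 0.277 and 0.622 TPM in MG, 0.337, 0.455 and 0.452 in LG, then 0, 0.608 and 0 in EL, rising to 1.56, 15.8 and 14.6 in PL, and 0.393, 0 and 0 in W2. All 3 PL samples lay above all 12 others, but PL 2 stood close to them while PL 3 and PL 6 were far above. The remaining stages overlapped, and their order (LG, MG, EL, W2) was within their spread. On the log2(TPM + 0.5) scale, LEP was 3.46 ± 0.53 (SE) higher in PL than in the mean of the other 4 stages (limma, adjusted p = 0.000670), and the exact two-sided permutation test of 3 PL samples against 12 gave p = 0.0022, the smallest it can give. In W2 vs PL it fell by 3.72 ± 0.68 (limma, adjusted p = 0.00189). Scaling left both calls in place, at 3.87 and -4.13 with median ratios. Without PL 2 the rise was 4.44 (limma, adjusted p = 2.91e-05).

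In PL 3 and PL 6 most of LEP stood in 2 transcripts, and in PL 2 in another. NM_213840.1 stood at 0.645, 6.96 and 4.92 TPM in PL and at no more than 0.317 in the other stages. XM_021078500.1 stood at 0, 8.89 and 6.03 TPM in PL and was listed at 0 in all 12 other samples, PL 2 among those without it. XM_021078502.1 had 0.916, 0 and 1.59 TPM in PL and at most 0.513 elsewhere, and XM_021078503.1 was seen in PL 6 alone, at 2.01 TPM. In PL the first 2 made up 39.2% and 46.7% of the gene's units, whereas XM_021078502.1 held 57.5% to 84.4% in each of the other stages. Against the mean of the other stages both NM_213840.1 (2.65 ± 0.45, limma, adjusted p = 0.00379) and XM_021078500.1 (2.65 ± 0.63, limma, adjusted p = 0.0240) were higher. The call of XM_021078500.1 was lost without PL 3 (1.85, limma, adjusted p = 0.105) or PL 6 (2.12, limma, adjusted p = 0.111), and it was not called in W2 vs PL (limma, adjusted p = 0.0626). LEP spans chromosome 18, 20106867 to 20124071 (Sscrofa11.1).

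Among 7735 genes with a mean of at least 5 TPM, the 5 whose log2 values followed LEP most closely over the 15 samples were LRG1 (Pearson r 0.956), ANG (0.955), ACTG2 (0.950), OSMR (0.947) and BHLHE40 (0.945). LRG1 encodes a secreted leucine-rich glycoprotein of the acute phase, ANG angiogenin, ACTG2 smooth muscle actin, OSMR the oncostatin M receptor and BHLHE40 a transcriptional repressor. The mean was taken over all 15 samples, PL included. LRG1 (stage means of 2.35 to 3.17 TPM outside PL) and OSMR (4.75 to 5.02) passed it only through PL, where LEP is also high. The points share libraries and stages, and these coefficients are descriptions. Mean LRG1 was 141 TPM in PL and 2.35 to 3.17 in the other stages, and mean ACTG2 was 858 TPM in PL and 120 to 143 elsewhere.

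**Figure D1:**
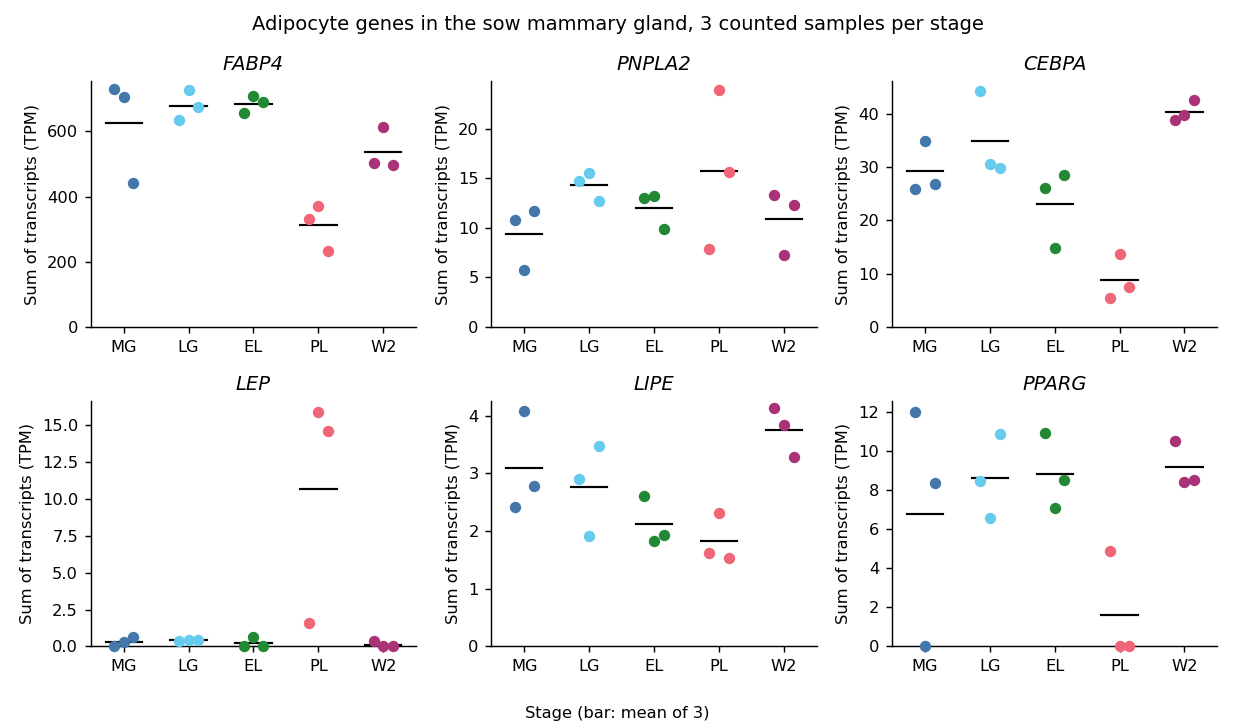
Sum of the transcripts of each gene (TPM, linear axes from 0) in the 3 counted samples of each stage, points, with the mean as a bar. LEP is raised in PL only, where PL 2 has 1.56 against 15.8 and 14.6, FABP4 and CEBPA have their lowest 3 values in PL, and PPARG is at 0 in MG 3, PL 3 and PL 6.

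FABP4 was by far the most abundant member, and was lowest at peak lactation. It stood at 729.5, 705 and 441 TPM in MG, 635, 728 and 674 in LG, 655, 709 and 689.6 in EL, 331, 370.3 and 234 in PL, and 504, 613 and 497 in W2. Stage means were 625 ± 160 (SD), 679 ± 47.0, 684 ± 27.2, 312 ± 70.1 and 538 ± 64.8 TPM (n = 3 each), so the order was EL, LG, MG, W2, PL. No PL sample reached any of the 12 others, the nearest being MG 6, while the ranges of MG, LG and EL overlapped.

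As deposited, FABP4 was 1.03 lower on the log2 scale in PL than in the mean of the other stages (log2 fold change -1.03 ± 0.16, limma, adjusted p = 0.000725), with the exact permutation test at its smallest p, 0.0022. It was 0.81 ± 0.20 higher in W2 than in PL (limma, adjusted p = 0.0104). The drop was larger than the all-gene shift of -0.47, but with median ratio scaling it was -0.46 ± 0.20 and no longer called (limma, adjusted p = 0.138), and W2 vs PL became 0.06 (limma, adjusted p = 0.919). With quantile normalization PL against the others remained called at -0.63 (limma, adjusted p = 0.0438), and W2 vs PL, at 0.31, did not (limma, adjusted p = 0.457). FABP4, a single transcript (NM_001002817.1), lies on chromosome 4, 55096400 to 55101209.

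The lipases did not move together. PNPLA2 stood at 10.8, 5.74 and 11.7 TPM in MG, 14.7, 15.6 and 12.7 in LG, 13.0, 13.2 and 9.85 in EL, 7.85, 23.9 and 15.6 in PL, and 13.3, 7.23 and 12.2 in W2. LIPE stood at 2.42, 4.08 and 2.77 TPM in MG, 2.90, 1.91 and 3.47 in LG, 2.60, 1.83 and 1.93 in EL, 1.61, 2.31 and 1.54 in PL, and 4.13, 3.83 and 3.29 in W2. PNPLA2 in PL spanned both the top and the lower end of its range, and LIPE in PL overlapped with EL and LG but with no MG or W2 sample.

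Stage means of PNPLA2 were 15.8 ± 8.02 (SD) TPM in PL, 14.3 ± 1.47 in LG, 12.0 ± 1.88 in EL, 10.9 ± 3.24 in W2 and 9.41 ± 3.21 in MG (n = 3 each), and neighbours in this order did not separate. PL exceeded the mean of the other stages by 0.33 ± 0.30 on the log2 scale (limma, adjusted p = 0.433; 95% interval of the difference -0.31 to 0.98), a call that was absent as deposited and appeared with median ratio scaling (0.87 ± 0.27, limma, adjusted p = 0.0447). Without PL 3 the as-deposited difference was -0.03.

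Mean LIPE was highest in W2 (3.75 ± 0.43 TPM), followed by MG (3.09 ± 0.88), LG (2.76 ± 0.79), EL (2.12 ± 0.42) and PL (1.82 ± 0.43). W2 vs PL was called (0.88 ± 0.27, limma, adjusted p = 0.0249). With median ratio scaling it was 0.26 (limma, adjusted p = 0.510), and leaving out PL 2, PL 6, W2 2 or W2 3 ended the call as deposited, with adjusted p of 0.0558, 0.0581, 0.0689 and 0.0642. PL against the mean of the other stages, at -0.54 ± 0.21, was not called (limma, adjusted p = 0.0732; exact permutation p = 0.0352).

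Ratios within a sample are unaffected by a single factor for that sample, as in median ratio scaling. Quantile normalization can change them. As deposited, 3 such ratios were compared, a test added after the data were seen. PNPLA2 over LIPE was 4.87, 10.3 and 10.1 in PL 2, PL 3 and PL 6, against 1.41 to 8.15 (median 4.34) in the 12 other samples. FABP4 over PNPLA2 was 42.2, 15.5 and 15.0 in PL against 37.7 to 123 (median 51.8), so that PL 3 and PL 6 fell below every other sample and PL 2 did not. CEBPA over FABP4 was 0.0163, 0.0367 and 0.0319 in PL against 0.0209 to 0.0854 (median 0.0469) elsewhere, and 0.0648 to 0.0854 in W2. On the log2 scale the PL differences were 1.00, -1.37 and -0.88, with exact two-sided permutation p of 0.0418, 0.00879 and 0.0330 and Benjamini-Hochberg adjusted p over the 3 ratios of 0.0418, 0.0264 and 0.0418. The adjustment covers these 3 pairs and not their choice from the possible pairs of members.

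**Figure D2:**
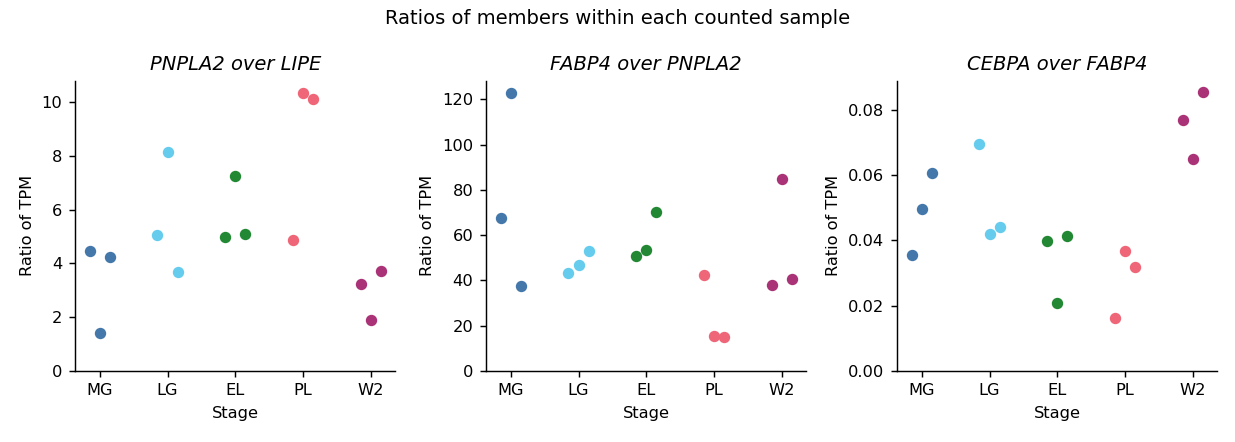
Ratio of the TPM of 2 genes within each counted sample, by stage (linear axes from 0, each point 1 sample). PL 3 and PL 6 have the highest PNPLA2 over LIPE ratios (10.3 and 10.1) and the lowest FABP4 over PNPLA2 ratios (15.5 and 15.0), while PL 2 (4.87 and 42.2) lies among the other stages in the first and inside their range in the second.

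By transcript, PNPLA2 was mainly NM_001098605.1, which held all of its units in MG 3, EL 6, PL 2, PL 3, PL 6 and W2 3. It stood at 7.85, 23.9 and 15.6 TPM in PL and at 5.74 to 12.4 in the others, a difference of 0.63 ± 0.27 that was not called as deposited (limma, adjusted p = 0.214) and was called with median ratio scaling (1.16, limma, adjusted p = 0.0110). XM_021076533.1 and the non-coding XR_001304228.2 had no units in any PL sample and up to 3.10 and 4.82 TPM elsewhere. LIPE was mainly XM_021093574.1, at 1.29, 2.26 and 0 TPM in PL and 1.35 to 3.67 elsewhere (-1.09 ± 0.42, limma, adjusted p = 0.156). In PL 6 all of its units stood in XM_013988601.2, at 1.54 TPM, and in MG 3 NM_214315.2 held 2.56 of 4.08 TPM. PNPLA2 lies on chromosome 2, 513065 to 517962, and LIPE on chromosome 6, 49543671 to 49560126.

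CEBPA fell at peak lactation and stood highest after weaning. It was at 25.9, 34.9 and 26.7 TPM in MG, 44.2, 30.6 and 29.7 in LG, 26.1, 14.8 and 28.4 in EL, 5.40, 13.6 and 7.46 in PL, and 38.7, 39.7 and 42.5 in W2. Means were 40.3 ± 1.95 (SD) TPM in W2, 34.8 ± 8.10 in LG, 29.2 ± 4.99 in MG, 23.1 ± 7.28 in EL and 8.82 ± 4.26 in PL (n = 3 each). All 3 PL samples lay below all 12 others, EL 4 being the nearest, and neighbours among the other 4 stages did not differ by the test.

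CEBPA was 1.84 lower on the log2 scale in PL than in the mean of the other stages (log2 fold change -1.84 ± 0.25, limma, adjusted p = 0.000304; exact permutation p = 0.0022, the smallest possible) and 2.23 ± 0.32 higher in W2 than in PL (limma, adjusted p = 0.000504). Median ratio scaling reduced these to -1.31 (limma, adjusted p = 0.000963) and 1.51 (limma, adjusted p = 0.00235), and quantile normalization to -1.35 and 1.55, all still called. The step from EL to PL, -1.39 ± 0.32 (limma, adjusted p = 0.0274), was less firm: without EL 3, EL 6, PL 2 or PL 6 adjusted p was 0.116, 0.108, 0.0557 and 0.0649. CEBPA has a single transcript (XM_003127015.4), on chromosome 6, 43083200 to 43085884.

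PPARG was listed at 0 in 2 of 3 PL samples. It stood at 12.0, 0 and 8.34 TPM in MG, 8.46, 6.55 and 10.9 in LG, 10.9, 7.09 and 8.51 in EL, 4.88, 0 and 0 in PL, and 10.5, 8.42 and 8.52 in W2. PL 2 was below every non-zero value of the other stages, but MG 3 was at 0 as well, so PL and MG overlapped. As deposited PPARG was -2.75 ± 0.85 in PL against the mean of the other stages (limma, adjusted p = 0.0292; exact permutation p = 0.00879) and 3.12 ± 1.08 in W2 vs PL (limma, adjusted p = 0.0428). Neither call held with median ratio scaling (limma, adjusted p = 0.1005 and 0.174), nor without PL 3 (limma, adjusted p = 0.128 and 0.125) or PL 6 (limma, adjusted p = 0.130 and 0.127). The W2 vs PL call was also lost with a pseudocount of 0.1 (4.64, limma, adjusted p = 0.0509), and without any 1 of LG 1, LG 3, LG 4, EL 3, EL 4, EL 6, W2 2, W2 3 and W2 6, with adjusted p from 0.0551 to 0.0969.

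The 4 PPARG transcripts in the table, of 8 in the reference, replaced each other between samples of a stage. In W2 2 the whole sum, 10.5 TPM, was XM_005669783.3, whereas W2 3 and W2 6 had none of it and 7.38 and 8.44 TPM of XM_005669784.3. XM_005669788.3 was the main one in EL 6, at 4.92 TPM, and XM_005669789.3 did not exceed 1.79 TPM. No PPARG transcript was called in W2 vs PL or in PL against the mean of the other stages. PPARG lies on chromosome 13, 68301566 to 68433951.

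**Figure D3:**
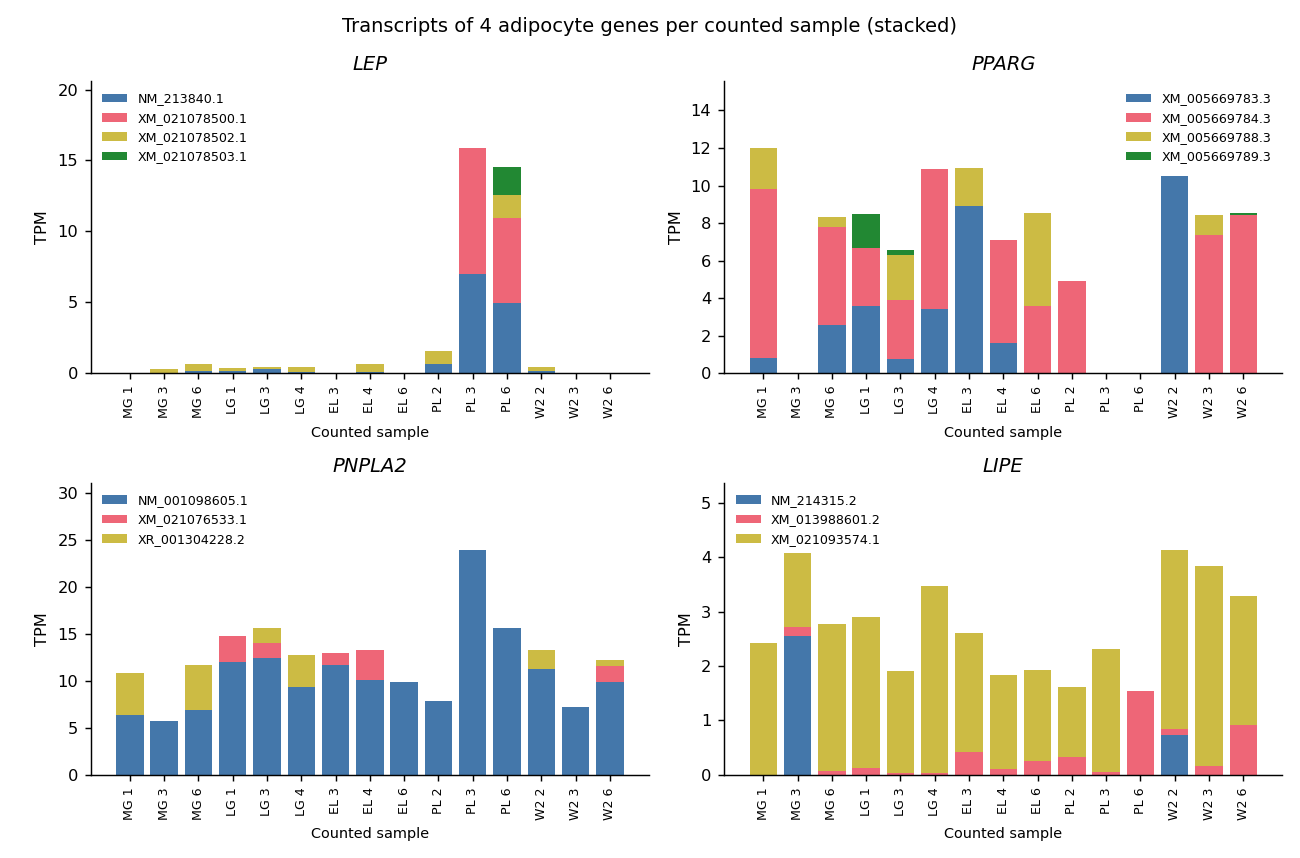
TPM of each reference transcript in the table, stacked, for LEP, PPARG, PNPLA2 and LIPE in the 15 counted samples (1 bar per sample). XM_021078500.1 of LEP is present only in PL 3 and PL 6 (8.89 and 6.03 TPM), and the PPARG sum in W2 2 (10.5 TPM) is a different transcript from that in W2 3 and W2 6.

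Members were then counted over the comparisons of stages, with adjusted p below 0.05 as the call and, for a differentially expressed gene in the stricter sense, a log2 fold change of at least 2 in size as well. In W2 vs PL, 4 of 6 members were higher (FABP4, LIPE, PPARG and CEBPA) and 1 lower (LEP), where 32.8% of all genes were called, and LEP, PPARG and CEBPA also passed the fold limit. The median over the members was 0.85, beside 0.68 over all genes. In PL against the mean of the other stages, 1 was higher (LEP) and 3 were lower (FABP4, PPARG and CEBPA), where 30.3% of all genes were called, and the members' median was -0.78 beside -0.47. With median ratio scaling the W2 vs PL calls were CEBPA, higher, and LEP and PNPLA2, lower, where 13.1% of all genes were called, and in PL against the others 2 were higher (LEP and PNPLA2) and 1 lower (CEBPA), where 16.4% were. When only the W2 and PL samples were fitted, CEBPA alone was called (limma, adjusted p = 0.0259), with LEP at 0.0586, FABP4 at 0.0717, LIPE at 0.0947 and PPARG at 0.1004.

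Samples did not overlap for 5 of 6 members in W2 vs PL (background 44.0% of genes), and for 3 of 6, LEP, FABP4 and CEBPA, in PL against the 12 others (background 12.4%). The moderated F test over the 5 stages called LEP (adjusted p = 0.00905), FABP4 (0.00799) and CEBPA (0.00323) in limma, where 18.3% of genes were called, and not LIPE (0.134), PPARG (0.158) or PNPLA2 (0.570). Of the 16 transcripts, 2 were higher and 1 lower in W2 vs PL (background 7.13%) and 2 higher and 2 lower in PL against the others (background 6.85%).

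As deposited, LEP was higher and FABP4 and CEBPA were lower in PL than in each earlier stage, which made 3 of 6 members called in PL vs MG (background 25.2%), PL vs LG (14.7%) and PL vs EL (4.62%). These comparisons share the PL samples. Fitted with only the compared stages, no member was called in PL vs MG or PL vs EL. LEP exceeded MG by 3.39 ± 0.68, LG by 3.13 ± 0.68 and EL by 3.61 ± 0.68. FABP4 stood at -0.99, -1.15 and -1.16 and CEBPA at -1.76, -1.995 and -1.39 in the same order. With quantile normalization FABP4 was at -0.55, -0.78 and -0.88 (limma, adjusted p = 0.182, 0.0692 and 0.0604) and with median ratios at -0.33, -0.64 and -0.82 (limma, adjusted p = 0.449, 0.144 and 0.0851), so none of its 3 calls held, whereas those of LEP and CEBPA held under both. LEP in PL vs EL lost its call without EL 3 (limma, adjusted p = 0.0570) or EL 6 (limma, adjusted p = 0.0501).

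No member was called in limma between any stages that did not include PL. The background was low there as well, at 0.0115% in LG vs MG, 0.0269% in EL vs MG, 0.0115% in W2 vs MG, 0.0154% in EL vs LG, 0.0346% in W2 vs LG and 0.554% in W2 vs EL. Unadjusted p was below 0.05 for 0 members in the first 5 of these and for 2 in W2 vs EL, LIPE (0.70 ± 0.27 higher, limma, adjusted p = 0.144) and CEBPA (0.84 ± 0.32 higher, limma, adjusted p = 0.140). Over all 26012 genes it was below 0.05 for 1153, 4138, 804, 1609, 1969 and 6531 in the same order of comparisons. From late gestation to early lactation CEBPA was at -0.61 ± 0.32 (limma, adjusted p = 0.789) and FABP4 at 0.01 ± 0.20.

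**Figure D4:**
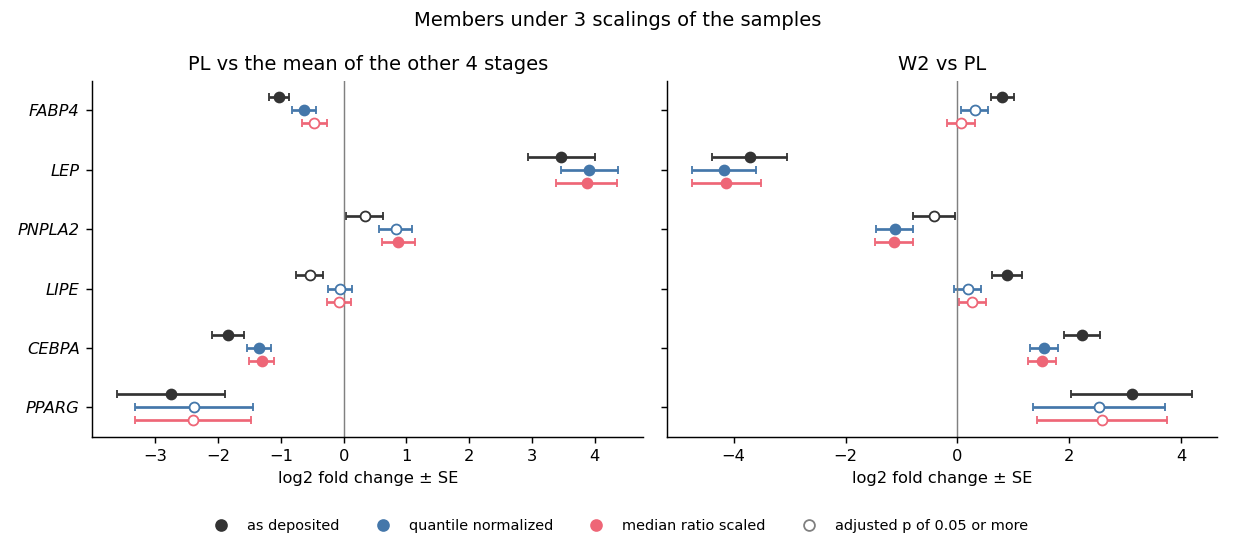
log2 fold change ± SE of the 6 members in limma, for PL against the mean of the other 4 stages and for W2 vs PL, with values as deposited, quantile normalized or scaled by median ratios. Filled symbols have adjusted p below 0.05. LEP and CEBPA are filled under all 3 scalings in both comparisons, FABP4 moves towards 0 (from -1.03 to -0.46 and from 0.81 to 0.06), and PNPLA2 moves away from it.

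Among other genes of adipogenesis, the C/EBP family split. Of 17 regulators in the table (PRDM16 had no row), 1 was higher and 6 were lower in PL against the other stages, beside the 30.3% of all genes, and with median ratio scaling 2 were higher (CEBPD and PPARD) and 1 lower (EBF1), beside 16.4%. CEBPD, an early factor of adipogenesis and of the acute phase, stood at 48.4, 209 and 262 TPM in PL and at 6.89 to 27.3 in the others, a difference of 2.83 ± 0.46 (limma, adjusted p = 0.000873). CEBPB stood at 28.1, 111 and 40.5 TPM in PL and at 59.1 to 179.5 elsewhere (-1.22 ± 0.31, limma, adjusted p = 0.0108). CEBPB was not called with median ratio scaling (adjusted p = 0.0994) or without PL 2 (adjusted p = 0.0787), whereas CEBPD was called under both (3.39 and 3.58).

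EBF1, a factor of adipocyte commitment, was at 1.495, 2.04 and 2.19 TPM in PL and at 3.63 to 9.03 in the 12 others, with no overlap (-1.42 ± 0.18, limma, adjusted p = 0.000215). It was called under both scalings too (-0.93 and -0.95). SREBF1, the lipogenic factor, was at 80.8 to 120.1 TPM in PL against 139.6 to 285 (-0.86 ± 0.18, limma, adjusted p = 0.00417), and with median ratios at -0.30 (adjusted p = 0.324). EBF2, ZNF423 and PPARGC1A were called lower as deposited by 0.64 to 0.78 and were not called with either scaling, nor without PL 2 (limma, adjusted p = 0.107, 0.132 and 0.140). In W2 vs PL 7 regulators were higher (CEBPB, EBF1, EBF2, PPARGC1A, RXRA, SREBF1 and ZNF423) and 1, CEBPD, was lower, beside 32.8% of all genes. With median ratio scaling 2 were higher (EBF1 and PPARGC1A) and 2 lower (CEBPD and PPARD), beside 13.1%. Leaving out W2 3 ended the calls of EBF2, RXRA, SREBF1 and ZNF423 (limma, adjusted p = 0.146, 0.0762, 0.0827 and 0.0546). Over 25 alternatives, other samples left out included, these 4 calls held in 14, 7, 19 and 19. STAT5A, the prolactin-signalling factor, ranged from 6.14 to 76.8 TPM and was not called in either comparison.

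Of 17 lipid droplet and lipolysis genes with a row (the beta adrenergic receptors ADRB1 and ADRB3 had none), 1 was higher and 2 were lower in PL against the others as deposited, beside 30.3% of all genes. With median ratio scaling 4 were higher (CIDEA, MGLL, ABHD5 and CD36) and 0 lower, beside 16.4%. CIDEA, a droplet protein of brown fat and of the secreting mammary epithelium, was at 38.3, 38.5 and 3.33 TPM in PL and at no more than 0.472 in any other sample (4.94 ± 0.56, limma, adjusted p = 0.000104). Unlike LEP, it was high in PL 2 and PL 3 and low in PL 6. PLIN2, the droplet coat protein of most tissues and of milk fat globules, was at 491, 1089 and 1005 TPM in PL and 1006 to 1457 elsewhere (-0.61 ± 0.19, limma, adjusted p = 0.0298). That difference turned to 0.02 with quantile normalization, and without PL 2 was -0.25 (limma, adjusted p = 0.138).

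PDE3B, which dampens lipolysis by degrading cyclic AMP, was at 0.449 to 0.887 TPM in PL against 0.897 to 2.45 (-0.83 ± 0.19, limma, adjusted p = 0.00646), and was at -0.48 with median ratio scaling (adjusted p = 0.0509). G0S2, the inhibitor of PNPLA2, ranged from 35.9 to 504 TPM and was not called (0.47 ± 0.56, limma, adjusted p = 0.561), nor was ABHD5, the lipase's activator, at 6.19 to 15.2 TPM (0.15 ± 0.20, limma, adjusted p = 0.611), as deposited. With median ratios ABHD5 was higher in PL (0.69, limma, adjusted p = 0.00823). LPL, lipoprotein lipase, was at 542, 166 and 57.6 TPM in PL and spanned 73.9 to 685 elsewhere (-0.85 ± 0.62, limma, adjusted p = 0.327). PLIN3, another coat protein, was at 31.1 to 61.0 TPM and was not called. In W2 vs PL, 3 of the 17 genes were higher (PLIN2, PDE3B and PRKAR2B) and 1 lower (CIDEA) as deposited, beside 32.8% of all genes called. With quantile normalization or median ratios 0 were higher and 3 lower (CIDEA, MGLL and CD36), beside 13.6% and 13.1%. PRKAR2B, a regulatory subunit of protein kinase A, was higher in W2 than in PL (1.00 ± 0.31, limma, adjusted p = 0.0276) and at 0.27 with median ratios (adjusted p = 0.443). As deposited its call was lost without W2 2, W2 3 or W2 6 (limma, adjusted p = 0.0529, 0.0673 and 0.0757).

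**Figure D5:**
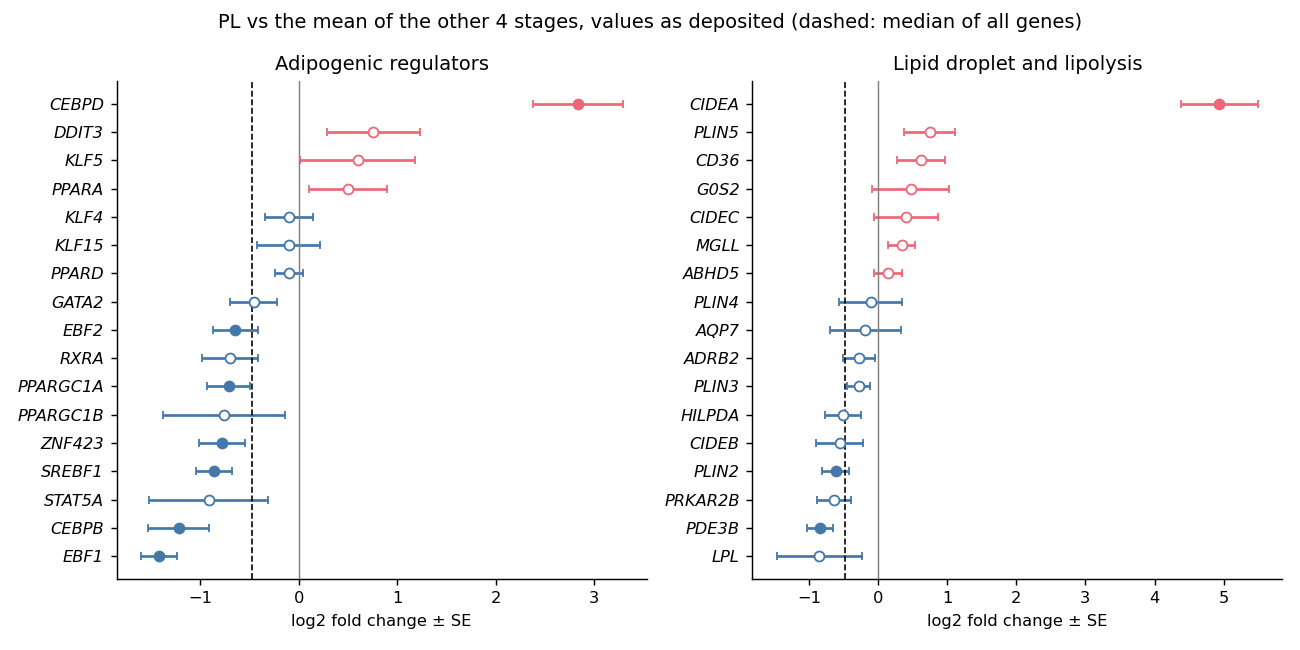
log2 fold change ± SE (limma, values as deposited) in PL against the mean of the other 4 stages, for the adipogenic regulators and the lipid droplet and lipolysis genes with a row (17 each). Filled symbols have adjusted p below 0.05, red symbols are above and blue below 0, and the dashed line is the median of all genes (-0.47). CEBPD (2.83) and CIDEA (4.94) stand apart to the right, EBF1 (-1.42) and CEBPB (-1.22) lie lowest among the regulators.

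Of 12 adipokines and receptors with a row (LEPR, the leptin receptor, and RETN had none), 1 was higher and 3 were lower in PL, beside 30.3% of all genes. With median ratio scaling 3 were higher (LCN2, ANGPTL4 and SFRP5) and 2 lower (APLN and CDH13), beside 16.4%. LCN2, lipocalin 2, an iron-binding defence protein that adipocytes and epithelium both secrete, was at 9.43, 1122 and 1647 TPM in PL and at 12.9 to 25.2 elsewhere (3.80 ± 1.07, limma, adjusted p = 0.0188). PL 2 was thus the lowest of all 15 samples and PL 3 and PL 6 the highest, and without PL 2 the difference was 6.17. Without PL 3 (2.76, limma, adjusted p = 0.106) or PL 6 (2.48, limma, adjusted p = 0.117) it was not called. APLN, apelin, was at 36.3, 29.9 and 36.2 TPM in PL and 66.9 to 136 elsewhere (-1.54 ± 0.14, limma, adjusted p = 2.67e-05), and CDH13, which binds adiponectin, at 3.99 to 6.47 against 9.97 to 15.1 (-1.25 ± 0.15, limma, adjusted p = 0.000155). Both were called with either scaling. The adiponectin receptor ADIPOR1 was called lower as deposited (-0.63) and not with median ratios (-0.08, adjusted p = 0.541). CFD, the adipokine adipsin, ranged from 13.3 to 70.9 TPM and was not called in either comparison.

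Of 15 genes of fatty acid and triglyceride synthesis with a row (ME1 and PCK1 had none), 2 were higher and 3 lower in PL, beside 30.3% of all genes. With median ratio scaling 4 were higher (SCD, ELOVL6, LPIN1 and ACLY) and 2 lower (GPAM and FABP5), beside 16.4%. SCD, stearoyl-CoA desaturase, was at 561, 184 and 95.4 TPM in PL against 46.9 to 138 (1.60 ± 0.40, limma, adjusted p = 0.0106), and its call was lost without PL 2 (0.91, adjusted p = 0.0598). ELOVL6, a fatty acid elongase, was at 38.1, 44.8 and 22.7 TPM against 5.00 to 16.2 (1.47 ± 0.30, limma, adjusted p = 0.00348). FABP5 was at 186, 197 and 177 TPM in PL against 322 to 509 (-1.10 ± 0.13, limma, adjusted p = 0.000104) and was called under both scalings.

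GPAM, which starts triglyceride synthesis, was listed at 0 in PL 2 and PL 6 and at 47.5 TPM in PL 3, inside the 26.2 to 80.1 of the others, and its lower call in PL was lost without PL 2 (limma, adjusted p = 0.0567). DGAT1, which completes it, was at 5.22 to 7.54 TPM in PL against 8.24 to 11.4 (-0.64 ± 0.14, limma, adjusted p = 0.00429) and at -0.11 with median ratios (adjusted p = 0.596). FABP3, the fatty acid carrier of heart and lactating gland, was the most abundant gene of that list, at 8664, 4193 and 3396 TPM in PL and 3667 to 6986 elsewhere, and was not called. ACLY (64.8 to 127 TPM) was not called as deposited and was with median ratios (0.71, limma, adjusted p = 0.0486).

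Markers of other cell types moved with the same samples, and their part in the members' results was not tested. As deposited, 30.3% of all genes were called in PL against the others and 32.8% in W2 vs PL. With median ratios these shares were 16.4% and 13.1%, and with quantile normalization 16.9% and 13.6%. All 6 milk protein genes (CSN1S1, CSN1S2, CSN2, CSN3, LALBA and WAP) were lower in W2 than in PL, and 5 (without CSN1S1) were higher in PL than in the other stages as deposited. Of these, CSN2 was not called without PL 2 (1.13, limma, adjusted p = 0.139). Of 9 fibroblast and preadipocyte markers, 5 were lower in PL (COL3A1, DCN, LUM, PDGFRA and PDGFRB, by 0.82 to 1.58), and the list summed to 500.3, 1174 and 668 TPM in PL and to 899 to 2716 in the other samples. COL3A1 and LUM were called with both scalings, and DCN, PDGFRA and PDGFRB with neither. In W2 vs PL 7 of the 9 were higher, COL1A1 and DPP4 included, and 2 were with median ratios. The COL1A1 call was lost without PL 2, PL 6, W2 3 or W2 6 (limma, adjusted p = 0.0844, 0.0563, 0.0789 and 0.0638). DPP4 was called under 9 of 24 alternatives. COL1A2 was called in neither. DPP4 was listed at 0 in all samples but W2 2 and W2 6, at 0.874 and 1.93 TPM.

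Of 5 endothelial markers, KDR alone was lower in PL as deposited, beside 30.3% of all genes called. It was at 6.10, 13.8 and 7.18 TPM against 17.7 to 25.4 (-1.30 ± 0.20, limma, adjusted p = 0.000738). The list summed to 75.1 to 124 TPM in PL and to 101 to 182 elsewhere. KDR was called lower in PL with both scalings (-0.80 and -0.77). KDR and VWF were higher in W2 vs PL as deposited, beside 32.8% of all genes called. Neither was with quantile normalization (limma, adjusted p = 0.101 for KDR) or median ratios (0.111), VWF then standing at 0.023 and -0.0033. Under these scalings TEK alone was called, and it was lower in W2 than in PL. It stood at -0.89 (limma, adjusted p = 0.0192) and -0.85 (limma, adjusted p = 0.0234), beside 13.6% and 13.1% of all genes called. PECAM1 (50.9 to 117 TPM) and CLDN5 (2.22 to 16.8 TPM) were called in neither comparison, and CDH5 and EMCN had no row. Of 6 macrophage markers, CD14 was higher and AIF1, CD163, CSF1R and ITGAM were lower in PL as deposited, beside 30.3% of all genes called. With either scaling CD14 was higher and CSF1R and ITGAM lower, and AIF1 (-0.12 and -0.049) and CD163 (limma, adjusted p = 0.120 and 0.117) were not called. CD14 was at 9.23, 234 and 298 TPM in PL and at 3.45 to 9.92 elsewhere, so PL 3 and PL 6, the samples with high LEP, LCN2 and CEBPD, were also those with high CD14. CSF1R was at 1.31 to 7.46 TPM in PL and 2.29 to 20.0 elsewhere, CD163 at 0.177 to 7.01 and 3.97 to 19.2, and without PL 6 CD163 was not called (limma, adjusted p = 0.0845). The defining marker CD68 had no row.

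Of 7 luminal epithelial markers, CDH1 alone was called in PL as deposited (-0.66, limma, adjusted p = 0.0498), beside 30.3% of all genes. It was not called with median ratios (limma, adjusted p = 0.675). The as-deposited call held only without PL 3 or PL 6 when 1 sample was left out. EPCAM stood at 475 to 754 TPM, was not called as deposited, and was higher in PL with median ratios (0.60, limma, adjusted p = 0.0190). KRT8, KRT19 and ELF5 were not called, and CLDN3 had no row. Of 6 myoepithelial markers, CNN1 alone was higher in PL as deposited (0.83 ± 0.23, limma, adjusted p = 0.0189), beside 30.3% of all genes called. That call was lost without PL 3 (0.51, limma, adjusted p = 0.113) or PL 6 (0.70, limma, adjusted p = 0.0814). With median ratios 3 were higher, CNN1 (1.39), KRT5 (1.43, limma, adjusted p = 0.0137) and ACTA2 (0.54, limma, adjusted p = 0.00383), beside 16.4% of all genes called. MYLK was called in neither. KRT14 and KRT17 had no row.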

How the data were processed

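RNA of frozen gland was made into TruSeq v2 libraries. Per the study's methods and the labels, the authors trimmed reads with Trimmomatic, aligned them to Sscrofa11.1 with HISAT2, assembled and quantified transcripts with StringTie, and kept those with an FPKM of at least 0.5 in a stage. Whether the RUVs correction named there was applied to the deposited values is not given in the sources used here. The deposited table is named FPKM, but its columns sum to nearly the same total, as TPM do, so the deposited values were used as TPM. The study states read totals for its libraries, counts were not used here, and the table does not give the number of reads behind a value.

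Reference transcripts were assigned to genes with RefSeq (Sscrofa11.1) and summed per gene. Sums of 26012 genes or loci (61773 transcripts) were fitted as log2(TPM + 0.5) in limma 3.58.1 (R 4.3.3) with a variance trend over the 15 counted samples of 5 stages, two-sided, with Benjamini-Hochberg adjustment over the whole table. The 15 near copies stayed out, no library was dropped within the counted ones, and nothing was imputed. A single value was tested by exact permutation of 3 PL against 12 samples (3 against 3 cannot go below p = 0.10). A fold change on this scale understates changes of low genes. No sequencing batch is named in the labels. Alternatives were other pseudocounts, filter, scaling, variance trend, sample sets and a replicate block, and each sample was left out in turn. Named genes were all members with their transcripts, the 4 most abundant genes of each list with any called in W2 vs PL or in PL against the others, and the 5 genes most like LEP, while PLIN4, CIDEC, SLC2A4, RBP4, ABHD5 and genes called under a scaling alone were named after their values were seen. Members and lists were chosen with earlier results of these data known. The same likeness for ADIPOQ could not be computed, and promoter sequences were not used here.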

Additional observations from a re-analysis of the deposited data

How the results depend on the processing

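Counts of members called moved by more than 1.5 times under these alternatives. W2 vs PL had 5 and gave 3 with quantile normalization, median ratio scaling or the replicate block, and 1 with only the compared stages fitted. PL vs EL had 3 and gave 1 with the block and 0 with only the compared stages, and PL vs MG had 3 and gave 0 with only the compared stages and 6 with all 6 samples per stage. That last setting also gave 1 in LG vs MG and 1 in EL vs LG, which had 0. With 1 sample left out, the count ranged from 1 to 4 in PL vs EL (1 without EL 3 or EL 6), from 3 to 5 in W2 vs PL (3 without PL 6, W2 2 or W2 3), from 3 to 4 in PL vs MG, from 3 to 5 in PL against the other stages, and was 0 in LG vs MG and EL vs LG throughout. The alternative with all 6 samples treats near copies as animals. The rest kept their counts within that limit, and the block changed no other call in W2 vs PL or PL against the others than those of LIPE and PPARG.

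Replicate numbers pair no animals. Deviations of samples with the same number correlated at -0.14 to 0.17 (19 pairs, median -0.02) and of other pairs at -0.19 to 0.26 (71 pairs). With the replicate block, LIPE and PPARG in W2 vs PL had adjusted p of 0.0557 and 0.0508 in limma, and PPARG in PL against the others 0.0553.

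Log2 fold changes that changed sign were all uncalled apart from 3 of context genes. LIPE in PL vs EL became 0.026 with quantile normalization and 0.093 with median ratios. PLIN2 became 0.023 with quantile normalization in PL against the others, and -0.065 with median ratios in W2 vs PL, where VWF became -0.0033. In LG vs MG, XM_013988601.2 became 0.018, 0.0087 and 0.23 with quantile normalization, median ratios and the block, XM_005669788.3 and XM_021078502.1 became 0.39 and -0.054 with the block, and NM_213840.1 became -0.0099 with all 6 samples. In EL vs LG, NM_001098605.1 became 0.11 and 0.069 with quantile normalization and median ratios, XM_021076533.1 became 0.13, 0.052 and 0.28 with those and the block, and XM_005669783.3 became 0.076 with all 6 samples.

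With 1 sample left out, signs changed for FABP4 in EL vs LG (-0.035 to 0.065) and LG vs MG (-0.081 to 0.28), LEP in LG vs MG (-0.033 to 0.55), LIPE in LG vs MG (-0.30 to 0.061), PNPLA2 in PL vs EL (-0.10 to 0.67) and in PL against the others (-0.025 to 0.75), and PPARG in EL vs LG (-0.13 to 0.21) and LG vs MG (-0.23 to 2.09). Among transcripts they changed for XM_005669783.3 in EL vs LG (-1.40 to 0.72), XM_005669784.3 in EL vs LG (-1.71 to 0.076) and LG vs MG (-0.65 to 1.47), XM_005669788.3 in LG vs MG (-1.16 to 0.31), XM_013988601.2 in LG vs MG (-0.11 to 0.093), PL vs EL (-0.14 to 0.80) and W2 vs PL (-0.64 to 0.30), XM_021076533.1 in EL vs LG (-0.81 to 0.76), XM_021078502.1 in LG vs MG (-0.22 to 0.26) and XR_001304228.2 in LG vs MG (-1.68 to 0.27). The context genes were recomputed under alternatives chosen after seeing the data. Of 37 called in PL against the others, 17 were called under every alternative run and 21 under both scalings, and of 41 in W2 vs PL, 10 and 17. Apart from what scaling, samples and pairing show, the cause of these changes was not tested. Values below 1 TPM and zeros, as in LEP and PPARG, have an unknown number of reads behind them.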

Other observations

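In the 15 columns not counted, which lie within 0.687% to 0.738% (median difference) of the mean of the counted 3, LEP stood at 10.3, 10.3 and 11.7 TPM in PL and at 0.172 to 1.78 TPM in the other stages. Where all 3 counted samples of a stage listed a transcript at 0, 49.8% to 50.6% of the values in these columns were above 0, the highest of them 2.12 TPM.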
